A study of Homo sapiens with 6 samples.

Results

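TRiC (also called CCT) is the chaperonin of the eukaryotic cytosol, and the transcripts of its 8 subunit genes, TCP1, CCT2, CCT3, CCT4, CCT5, CCT6A, CCT7 and CCT8, are described here in ARPE-19 cells. The members were taken by name from the deposited gene table, where each has a single row, and are 8 of its 19514 gene names. ARPE-19 is a cell line established from human retinal pigment epithelium. It was treated for 24 h either with 40 µM tt-DDE (trans,trans-2,4-decadienal), a reactive lipid aldehyde that arises from oxidised linoleic acid, or with DMSO, the vehicle. Each group held 3 libraries of polyadenylated RNA from this single line, and the series asked how the aldehyde changes gene expression. The labels do not say whether the libraries of a group came from separate cultures, so the p-values measure the spread between these libraries, which may be technical.

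The chaperonin is built as a pair of stacked rings, each with a single copy of every subunit around a central cavity. ATP binding and hydrolysis close a built-in lid over the cavity, and the enclosed protein folds inside. Actin and tubulin are its classical clients, and many proteins with WD40 repeats also depend on it. Because the rings hold the subunits in equal number, the proportions of the 8 transcripts to each other were examined as well as their levels.

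Total counts ranged from 14156421 to 16061373 per DMSO library and from 15548067 to 17130543 per tt-DDE library. The 10 most abundant gene names took 5.13% to 5.27% of each DMSO library and 10.6% to 11% of each tt-DDE library. Of 10 markers of retinal pigment epithelium, 8 could be tested and RPE65 had no count in any library. OTX2 and MITF, transcription factors of this lineage, were at 64.0 ± 2.06 and 59.4 ± 3.50 CPM (counts scaled to library size and composition, given as mean ± SD with n = 3) in DMSO. After tt-DDE OTX2 was at 62.9 ± 1.66 CPM and did not pass the test. MITF was at 54.3 ± 5.09 CPM and was called lower (log2 fold change -0.13, edgeR adjusted p 0.0489), though the groups overlapped. Across the 8 tested markers 5 fell, 1 rose and 2 did not pass. The marker that rose was BEST1, from 0.506 ± 0.0378 to 21.6 ± 3.76 CPM. The summed level of all 10 went from 1973 to 2021 CPM in DMSO to 824 to 854 CPM after tt-DDE. Most of that sum was KRT8, KRT18 and EZR, at 748, 365 and 754 CPM in DMSO. These were at 214, 145 and 340 CPM after tt-DDE, so the sum says little about the other markers. Markers of leukocytes summed to at most 0.275 CPM in DMSO and 1.51 to 2.34 CPM after tt-DDE, nearly all of it CD14, with CD3E at 0. Endothelial, photoreceptor and neuron, and melanocyte markers summed to at most 1.07 CPM in any library. The part of these shifts in the results below was not tested.

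After tt-DDE most of the chaperonin transcripts rose, by unequal amounts. TCP1 rose 2.69-fold, CCT4 1.60-fold, and CCT8, CCT6A, CCT3, CCT2 and CCT7 between 1.20-fold and 1.36-fold, while CCT5 did not pass the test. Thus 7 of 8 subunits were higher and none was lower (edgeR quasi-likelihood test, Benjamini-Hochberg adjusted p below 0.05 over 12531 features). In the same test 41.7% of all features were higher, 41.6% were lower and 83.3% passed in either direction, so that a call by itself sets a gene little apart in these libraries. The median log2 fold change of the 8 subunits was 0.42, beside 0.0013 over all features, and 33.3% of all features lay above the subunits' median. Without TCP1 the median of the other 7 was 0.40. In a bulk culture, a changed number of cells of a kind and a changed amount of RNA per cell cannot be told apart. All levels here are relative to the library.

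**Figure D1:**
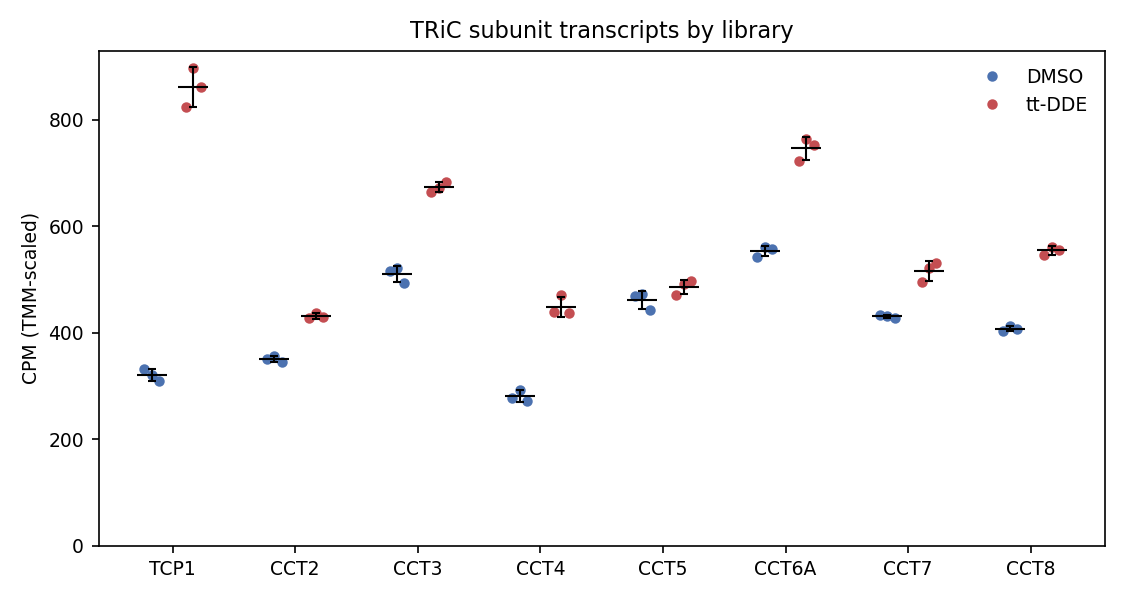
Level of each TRiC subunit transcript in CPM (vertical axis, linear, from 0), with 1 point per library, DMSO in blue and tt-DDE in red, and black marks for the mean ± SD of 3 libraries. The TCP1 points move from 310 to 331 CPM up to 824 to 897 CPM, while those of CCT5 overlap between the groups.

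TCP1, the alpha subunit, gave the complex its first name, t-complex polypeptide 1. The gene lies on the minus strand at chr6:159778498-159789602 (GRCh38.p13). The raw count of TCP1 was 4823, 5263 and 5156 in the vehicle libraries, and 13705, 14244 and 12971 with the aldehyde. On the CPM scale these were 331, 321 and 310 in DMSO against 824, 897 and 862 after tt-DDE. Every tt-DDE library was above every DMSO library, by far more than the spread within either group. The means were 321 ± 10.8 and 861 ± 36.8 CPM (SD, n = 3). The log2 fold change was 1.43 (SE 0.0373, edgeR adjusted p 1.03e-33). TCP1 was the sole subunit to rise at least 2-fold, a size that 16.1% of all features reached among those called higher. Its log2 fold change was exceeded by 9.14% of all features.

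The sequence before the start of TCP1, which holds the whole stretch up to the neighbouring gene MRPL18 on the opposite strand, is shown because both genes rose after tt-DDE, and the windows of CCT2 and CCT8 are shown as subunits without a head-to-head neighbour. All come from RefSeq (GRCh38.p14) and are written 5′ to 3′ on the strand of the subunit gene, up to the base before its start. Heat shock factors bind inverted repeats of GAA, so the letters GAANNTTC and TTCNNGAA, each its own reverse complement, were searched, and the match is in capitals. The TCP1 stretch is chr6:159789603-159789841 on the minus strand, that of CCT2 is chr12:69585209-69585458 on the plus strand, and that of CCT8 is chr21:29073649-29073898 on the minus strand.
TCP1: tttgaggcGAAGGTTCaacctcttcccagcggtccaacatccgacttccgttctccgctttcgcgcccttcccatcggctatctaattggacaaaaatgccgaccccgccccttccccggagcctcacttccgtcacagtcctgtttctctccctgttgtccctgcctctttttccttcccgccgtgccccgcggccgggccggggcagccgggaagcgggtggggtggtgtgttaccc
CCT2: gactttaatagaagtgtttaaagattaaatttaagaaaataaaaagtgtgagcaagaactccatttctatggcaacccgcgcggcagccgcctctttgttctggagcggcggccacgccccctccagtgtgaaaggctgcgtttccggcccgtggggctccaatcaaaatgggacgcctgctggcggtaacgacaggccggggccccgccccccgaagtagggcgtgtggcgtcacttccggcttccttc
CCT8: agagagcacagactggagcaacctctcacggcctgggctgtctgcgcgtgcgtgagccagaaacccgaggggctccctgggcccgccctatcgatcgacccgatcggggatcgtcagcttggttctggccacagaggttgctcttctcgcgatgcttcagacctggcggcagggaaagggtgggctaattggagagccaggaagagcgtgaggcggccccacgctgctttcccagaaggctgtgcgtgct

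CCT4, the delta subunit, can form rings of its own kind when made alone in bacteria, as can CCT5. The CCT4 gene is on the minus strand at chr2:61868085-61888671. It read 276, 293 and 273 CPM in the DMSO libraries and 439, 470 and 437 CPM in the tt-DDE libraries. The groups were separate, and CCT4 had the second largest rise of the 8 (log2 fold change 0.68, SE 0.0381, edgeR adjusted p 7.12e-21).

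CCT5, the epsilon subunit, is encoded on the plus strand at chr5:10249921-10266412. It read 469, 472 and 442 CPM in DMSO and 470, 491 and 497 CPM after tt-DDE. The lowest tt-DDE library lay below the highest DMSO library, so the groups overlapped. The log2 fold change was 0.08 with a 95% interval of 0.003 to 0.149 before adjustment, and the edgeR adjusted p was 0.0508. This value depends on the scaling. With library size alone the log2 fold change was -0.016 (edgeR adjusted p 0.674), and without tt-DDE library 1 it was 0.101 (edgeR adjusted p 0.0137), which makes 8 of 8 subunits higher.

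CCT8, the theta subunit, at chr21:29056326-29073648 on the minus strand, read 402, 413 and 407 CPM in DMSO and 546, 562 and 555 CPM after tt-DDE (log2 fold change 0.44, SE 0.0346, edgeR adjusted p 7.27e-16). CCT6A, the zeta subunit that is expressed widely, is at chr7:56051765-56063989 on the plus strand. It read 542, 560 and 557 CPM in DMSO and 722, 764 and 753 CPM after tt-DDE (log2 fold change 0.43, edgeR adjusted p 1.9e-15). For both genes the groups were well apart, and their rises were of nearly the same size.

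CCT3, the gamma subunit, at chr1:156308968-156338292 on the minus strand, read 516, 522 and 493 CPM in DMSO and 664, 672 and 683 CPM after tt-DDE. Its log2 fold change was 0.40 (edgeR adjusted p 2.57e-14). CCT2, the beta subunit, which has also been described as a receptor that brings protein aggregates to autophagy, lies at chr12:69585459-69601570 on the plus strand. It was at 351, 356 and 344 CPM in DMSO and at 428, 437 and 429 CPM after tt-DDE, a log2 fold change of 0.30 (edgeR adjusted p 1.79e-10). CCT7, the eta subunit, at chr2:73233425-73253008 on the plus strand, was at 433, 432 and 428 CPM in DMSO and at 495, 521 and 530 CPM after tt-DDE. It had the smallest rise to pass the test, with a log2 fold change of 0.26 (edgeR adjusted p 1.02e-08). In all 3 genes no tt-DDE library fell into the DMSO range.

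Counted by separation, 7 of the 8 subunits had all tt-DDE libraries above all DMSO libraries and none had them all below. Among all features 42.0% were separated upwards and 41.9% downwards. Within a group the subunits were measured closely, with a coefficient of variation of 0.625% to 4.28%.

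**Figure D2:**
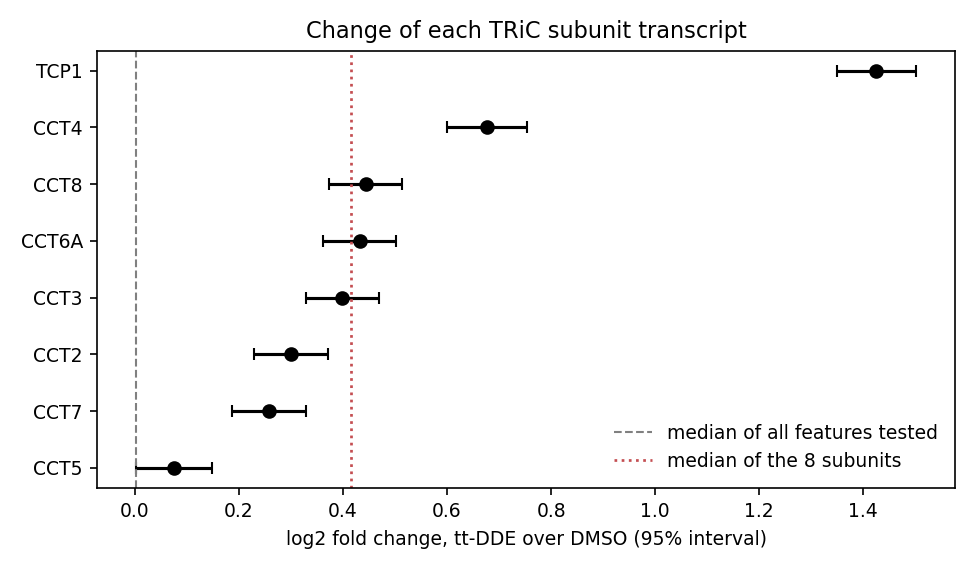
Log2 fold change of each TRiC subunit, tt-DDE over DMSO (horizontal axis), with 95% intervals from the edgeR fit. The dashed line is the median of all features tested (0.0013) and the dotted line the median of the 8 subunits (0.42), with TCP1 at 1.43 and CCT4 at 0.68 apart from the other 6.

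Levels of different subunits were compared per length, with the deposited FPKM (counts scaled to gene length and to the library total). In DMSO the order from the top was CCT3 (234 ± 6.07 FPKM), CCT6A (221 ± 4.51), CCT7 (219 ± 0.468), CCT8 (195 ± 2.77), CCT2 (177 ± 2.55), TCP1 (141 ± 4.18), CCT5 (125 ± 4.02) and CCT4 (121 ± 4.48). The ranges of CCT6A and CCT7 overlapped, as did those of CCT5 and CCT4. All 8 lay within a factor of 1.93 of each other, averaged over the libraries.

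After tt-DDE the order was TCP1 (354 ± 14.1 FPKM), CCT3 (289 ± 3.78), CCT6A (280 ± 7.34), CCT8 (248 ± 2.79), CCT7 (245 ± 8.23), CCT2 (205 ± 1.87), CCT4 (182 ± 7.12) and CCT5 (124 ± 3.25). Only CCT8 and CCT7 overlapped as neighbours in this order. TCP1 thus moved from the sixth place to the first, and CCT5 became the lowest. The ratio of the highest to the lowest subunit went from 1.93 ± 0.0473 to 2.86 ± 0.0802. When the length of a GENCODE coding transcript replaced the deposited length, an alternative chosen after seeing the data, TCP1 still moved from sixth to first and CCT5 was again the lowest after tt-DDE. In DMSO the order of some neighbours then changed, with CCT7 above CCT6A, and TCP1 overlapping CCT5. After tt-DDE CCT8 then stood above CCT6A, and CCT6A overlapped both CCT8 and CCT7.

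The summed level of the 8 subunits was 1430, 1453 and 1414 FPKM in DMSO and 1881, 1961 and 1938 FPKM after tt-DDE, a ratio of 1.35. Without TCP1 the ratio of the summed level was 1.22. TCP1 alone made up 43.2% of the rise in summed FPKM. The deposited FPKM carries no composition scaling, and with the scaled CPM the ratios were 1.42 for all 8 and 1.29 without TCP1. In each of these sums the groups were separate, with an exact permutation p of 0.1, which is the smallest that 3 libraries against 3 can give.

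Proportions were then compared. TCP1 supplied 10.1%, 9.69% and 9.65% of the summed FPKM in the DMSO libraries and 18.1%, 18.8% and 18.3% in the tt-DDE libraries. CCT5 supplied 8.88%, 8.82% and 8.53% in DMSO and 6.39%, 6.36% and 6.53% after tt-DDE. The shares of TCP1 and CCT4 were higher in every tt-DDE library than in any DMSO library. Those of the other 6 were lower, each with an exact permutation p of 0.1. The shares add up to the whole, so a larger TCP1 share by itself lowers the others, and these are not separate results. The mean share of CCT4 went from 8.45% to 9.42%, that of CCT7 from 15.3% to 12.7% and that of CCT2 from 12.4% to 10.6%.

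A fit across all features, with the summed counts of the 8 subunits as the library size, tested proportions of counts. Unlike the FPKM shares, that total is not scaled to length, so long transcripts weigh more in it. Relative to that total TCP1 (log2 fold change 0.92, edgeR adjusted p 6.2e-24) and CCT4 (0.17, edgeR adjusted p 0.000544) were higher. CCT5 (-0.43, edgeR adjusted p 9.58e-13), CCT7 (-0.25, edgeR adjusted p 7.38e-07), CCT2 (-0.21, edgeR adjusted p 2.15e-05) and CCT3 (-0.11, edgeR adjusted p 0.0164) were lower. CCT6A and CCT8 did not pass, at -0.08 and -0.07. On this scale 22.8% of all features were higher and 61.6% lower. The call for CCT3 was lost without DMSO library 1 or DMSO library 2 (edgeR adjusted p 0.0686 and 0.0569).

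Since TCP1 itself enlarges that total, the summed counts of the other 7 subunits were used as a second reference, chosen after seeing the data. TCP1 (1.06, edgeR adjusted p 1.68e-27) and CCT4 (0.31, edgeR adjusted p 5.78e-09) were again higher, and CCT5 (-0.29, edgeR adjusted p 1.65e-08) and CCT7 (-0.11, edgeR adjusted p 0.0152) were again lower. CCT2, CCT3, CCT6A and CCT8 did not pass, at -0.06, 0.04, 0.07 and 0.08 on the log2 scale. With this reference 27.6% of all features were higher and 56.1% lower. The coefficient of variation of FPKM across the 8 subunits went from 25.3% ± 0.760 to 29.5% ± 0.502. Across the 7 without TCP1 it was 24.9% ± 0.723 and 26.1% ± 0.509, and the groups overlapped (exact permutation p 0.2).

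**Figure D3:**
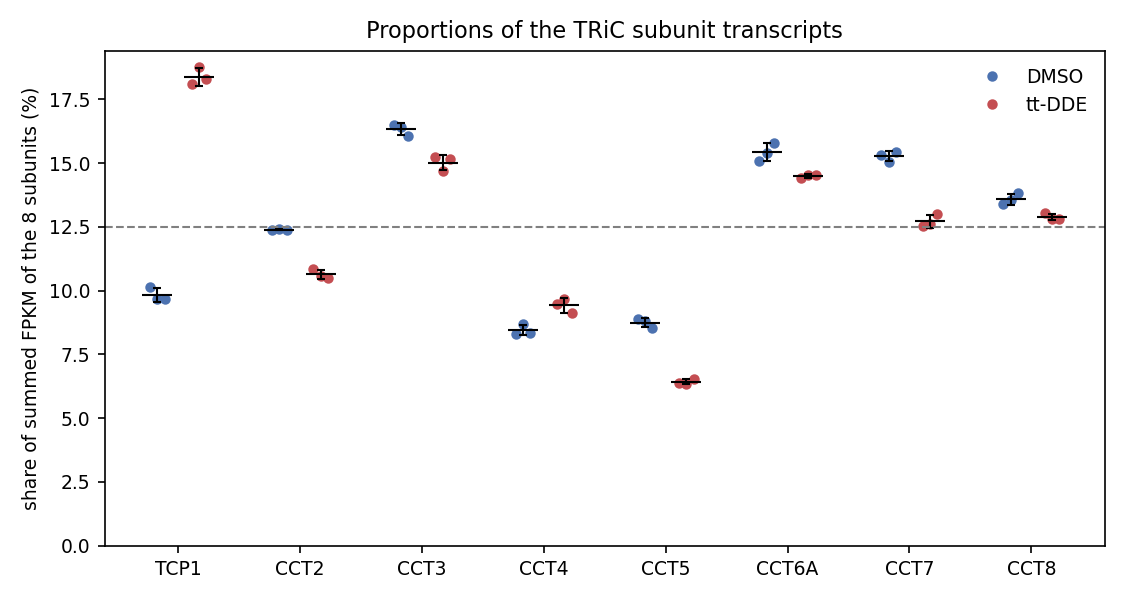
Share of each subunit in the summed FPKM of the 8 (vertical axis, percent, from 0), with 1 point per library, DMSO in blue and tt-DDE in red, and black marks for the mean ± SD of 3 libraries. The dashed line marks an equal share of 12.5%, which TCP1 crosses upwards, from 9.82% to 18.4%, while CCT5 lies under it in both groups, at 8.74% and 6.42%.

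Several subunit genes have a neighbour that starts close by on the opposite strand, and these head-to-head pairs were compared. By the rule used (starts within 1000 bases), 6 of the 8 subunits have such a neighbour, and CCT2 and CCT8 have none. MRPL18, a protein of the large subunit of the mitochondrial ribosome, starts 210 bases from TCP1 without overlapping it. It read 52.5, 54.6 and 54.1 CPM in DMSO and 224, 263 and 256 CPM after tt-DDE. All tt-DDE libraries were above all DMSO libraries, as for TCP1 itself (log2 fold change 2.20, SE 0.0510, edgeR adjusted p 7.97e-36). Such upward separation was found in 42.0% of all features.

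Directions differed among the other pairs. PSPH, the last enzyme of serine synthesis, starts 161 bases from CCT6A and rose with it, from 32.2 ± 1.71 to 46.3 ± 3.26 CPM (log2 fold change 0.52, edgeR adjusted p 2.14e-09). PRADC1, 141 bases from CCT7, fell from 16.9 ± 0.867 to 4.43 ± 1.13 CPM (-1.93, edgeR adjusted p 2.24e-17). COMMD1, a regulator of copper handling and of NF-kB, starts 280 bases from CCT4 and overlaps it by 281 bases. It fell from 17.9 ± 0.986 to 10.3 ± 0.502 CPM (-0.80, edgeR adjusted p 2.62e-09). ATPSCKMT, a lysine methyltransferase of the mitochondrial ATP synthase, starts 33 bases from CCT5 and was at 17.6 ± 1.19 and 17.7 ± 1.17 CPM, a log2 difference of 0.00 with a 95% interval of -0.19 to 0.19 (edgeR adjusted p 0.970). TSACC overlaps CCT3 by 979 bases. Its DMSO libraries held 1, 11 and 7 counts and its tt-DDE libraries 23, 7 and 20. Its call (log2 fold change 1.38, edgeR adjusted p 0.00786) was lost without DMSO library 1, tt-DDE library 1 or tt-DDE library 3, where the adjusted p was 0.0788, 0.0574 and 0.0521.

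**Figure D4:**
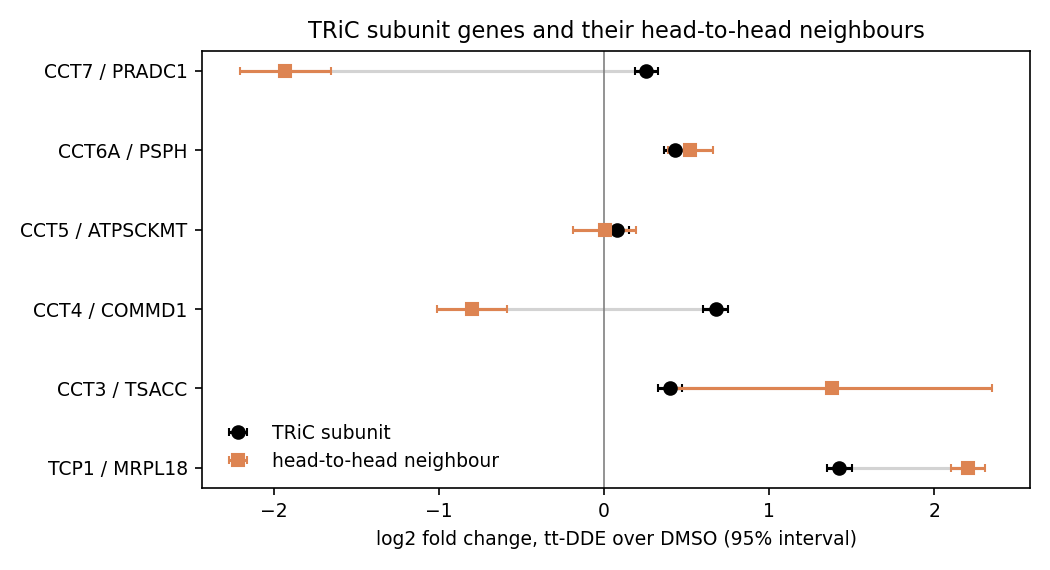
Log2 fold change, tt-DDE over DMSO (horizontal axis), of 6 TRiC subunits (black circles) and of the neighbour that starts within 1000 bases on the opposite strand (orange squares), with 95% intervals from the edgeR fit. MRPL18 lies at 2.20 beside TCP1 at 1.43, whereas COMMD1 and PRADC1 lie below 0 beside subunits above 0.

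At its other end TCP1 shares 615 bases with ACAT2, an acetyl-CoA acetyltransferase encoded on the opposite strand. Whether strand was used in counting is not given in the sources used here, so reads in such shared stretches may have gone to either gene or to none. The ACAT2 count was 899, 983 and 1015 in the DMSO libraries and fell to 163, 185 and 176 in the tt-DDE libraries (log2 fold change -2.46, edgeR adjusted p 1.33e-30). The TCP1 count was 5.08 to 5.37 times that of ACAT2 in DMSO and 73.7 to 84.1 times after tt-DDE. GENCODE v29 names 13 pseudogenes after subunits of the complex, 2 of them transcribed, and these were not analysed here. How reads that also match them were assigned is not given in the sources used here.

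In the TCP1 stretch printed above, the letters GAAGGTTC stand 231 to 224 bases before the TCP1 start. In the deposited coordinates 209 bases separate the genes, and the match lies within the first 30 bases of MRPL18. A second RefSeq start of MRPL18, 55 bases further into that gene, has the same site 41 to 34 bases before it. Windows were found for 7 of the 8 subunits, 5 of them with a window at the deposited start. Those of CCT5 and CCT7 lie 616 and 883 bases from it. Neither motif occurs in the windows of CCT3, CCT4, CCT5, CCT7 or CCT8, nor in the CCT2 window at the deposited start. A second CCT2 window, 430 bases away, holds GAAATTTC 89 to 82 bases before its start. Among 35116 promoter windows 5.78% hold GAANNTTC, 6.62% TTCNNGAA and 11.6% at least 1 of them. A match is a description of these letters, not a bound site. HSF2, a heat shock factor, rose (log2 fold change 0.76, edgeR adjusted p 1.24e-13). HSF1, with 55 to 105 counts per library over 2 rows of the table, also rose (0.46, edgeR adjusted p 0.0118), a call lost without DMSO library 3 (edgeR adjusted p 0.154). Its level is uncertain, since reads that match both rows may have been divided or left out. Over all features 41.7% were higher, and a part of either factor in the rise of TCP1 was not tested.

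Prefoldin is the jellyfish-shaped complex that hands unfolded actin and tubulin to the chaperonin. Of its 6 genes 5 could be tested, and 1 rose, 2 fell and 2 did not pass, with a median log2 fold change of 0.10. Over all features 41.7% were higher and 41.6% lower, which stands beside this count and those of the lists below. PFDN2 rose from 45.9 ± 1.31 to 66.8 ± 0.710 CPM (0.54, edgeR adjusted p 6.45e-12), while PFDN1 (-0.37, edgeR adjusted p 8.82e-09) and VBP1 (-0.22, edgeR adjusted p 0.000354) fell. PFDN4 and PFDN5 were at 0.15 and 0.10. The number that rose was 2 without tt-DDE library 3, where PFDN4 passed (0.24, edgeR adjusted p 0.00845), and without tt-DDE library 2, where PFDN5 passed (0.12, edgeR adjusted p 0.0293). PFDN6 had 3 to 6 counts per library over 5 rows and was not tested.

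Prefoldin-like proteins and the R2TP complex work beside the chaperonin in assembling large complexes. Of their 8 genes 3 rose, 4 fell and 1 did not pass (median -0.19), beside 41.7% higher and 41.6% lower over all features. PDRG1 (0.97, edgeR adjusted p 1.44e-17) and RPAP3 (0.74, edgeR adjusted p 1.22e-17) rose. The ATPases RUVBL1 (-1.16, edgeR adjusted p 3.71e-22) and RUVBL2 (-0.28, edgeR adjusted p 1.19e-07) fell. URI1 was called higher at 0.11 (edgeR adjusted p 0.0354), but leaving out any library except tt-DDE library 3 ended that call. The phosducin-like proteins bind the chaperonin with its clients. Of 4, 3 could be tested, and PDCL3 (-0.85, edgeR adjusted p 3.27e-11) and TXNDC9 (-0.25, edgeR adjusted p 0.000138) fell, while PDCL did not pass (-0.01).

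Among 7 relatives of the subunits 6 could be tested, with 3 higher, 2 lower and 1 not past (median 0.39). The shares over all features were 41.7% higher and 41.6% lower. HSPD1, the chaperonin of mitochondria, rose from 873 ± 14.3 to 4207 ± 243 CPM (2.27, edgeR adjusted p 7.66e-42). Its co-chaperonin HSPE1 rose from 7.13 ± 0.738 to 12.4 ± 0.643 CPM (0.79, edgeR adjusted p 1.56e-07), a level that is uncertain because the gene has many near-identical copies. Of the Bardet-Biedl chaperonin-like proteins, which act with TRiC in building the BBSome, BBS12 rose (1.28, edgeR adjusted p 8.6e-10), and BBS10 (-1.52, edgeR adjusted p 3.46e-19) and MKKS (-0.36, edgeR adjusted p 1.71e-06) fell. CCT6B, the testis form of the zeta subunit, was at 1.03 to 1.38 CPM in DMSO and at 1.07 to 1.50 CPM after tt-DDE and did not pass. CCT8L2 had 0 counts in all 6 libraries, which allows up to 0.18 to 0.206 CPM per library at 3 counts.

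Transcripts of the classical clients mostly fell. Of 15 actin and tubulin genes 14 could be tested, and 12 fell and 2 rose (median -1.51). Over all features 41.6% were lower and 41.7% higher. The call for TUBB2A (-0.24, edgeR adjusted p 0.0229) was lost without DMSO library 1, tt-DDE library 1 or tt-DDE library 2 (edgeR adjusted p 0.0513, 0.118 and 0.0514), and 11 to 13 genes fell when a library was left out. ACTB read 5160, 5039 and 4917 CPM in DMSO and 1061, 889 and 999 CPM after tt-DDE (log2 fold change -2.36, edgeR adjusted p 1.14e-40). ACTG1 (-1.27, edgeR adjusted p 1.98e-32), TUBA1B (-2.03, edgeR adjusted p 2.45e-40) and TUBB4B (-1.92, edgeR adjusted p 5.64e-38) fell as well, and TUBB3 (1.02, edgeR adjusted p 5.54e-24) and TUBB4A (0.86, edgeR adjusted p 2.46e-15) rose. The summed level of the list went from 15710 to 16510 CPM in DMSO to 5226 to 5750 CPM after tt-DDE, while that of the subunits went from 3254 to 3369 CPM up to 4587 to 4813 CPM. Members of these families are close in sequence, and TUBB is divided over 8 rows, so single levels are uncertain.

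The tubulin cofactors take tubulin from the chaperonin and assemble the dimer. Of 6 genes 2 rose, 3 fell and 1 did not pass (median -0.49), beside 41.7% higher and 41.6% lower over all features. TBCA rose from 76.7 ± 2.04 to 106 ± 2.76 CPM (0.47, edgeR adjusted p 3.97e-12), close to the median of the subunits. TBCD (-1.53, edgeR adjusted p 2.41e-29), ARL2 (-1.38, edgeR adjusted p 1.72e-15) and TBCB (-0.92, edgeR adjusted p 1.78e-16) fell. TBCE was called higher with 22 to 52 counts per library (0.57, edgeR adjusted p 0.0410), and the call was lost without DMSO library 2 or 3 or tt-DDE library 1 or 2.

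Among 19 other reported clients, 8 rose and 8 fell, 3 did not pass, and the median was -0.02. These counts are close to the shares of all features, 41.7% higher and 41.6% lower. With library size alone 10 fell, among them DCAF7 (-0.11, edgeR adjusted p 0.0106) and GNB2 (-0.15, edgeR adjusted p 0.000551). The largest falls were those of PLK1 (-4.67, edgeR adjusted p 7.94e-44), a mitotic kinase, and CDC20 (-4.15, edgeR adjusted p 4.37e-45), the activator of the anaphase-promoting complex and a WD40 protein. The striatins, WD40 proteins of a phosphatase complex, rose, with STRN3 at 0.90 (edgeR adjusted p 3.73e-19), STRN at 0.86 (edgeR adjusted p 1.27e-19) and STRN4 at 0.73 (edgeR adjusted p 1.83e-18). RPTOR and MLST8 are both WD40 subunits of mTORC1. RPTOR rose (0.67, edgeR adjusted p 3.04e-15) and MLST8 fell (-0.62, edgeR adjusted p 7.15e-12). Of the G protein beta subunits GNB4 (-1.43, edgeR adjusted p 1.65e-24), GNB5 (-0.71, edgeR adjusted p 8.75e-14) and GNB1 (-0.24, edgeR adjusted p 3.11e-08) fell, and GNB2 was at -0.06 and did not pass with the composition scaling.

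**Figure D5:**
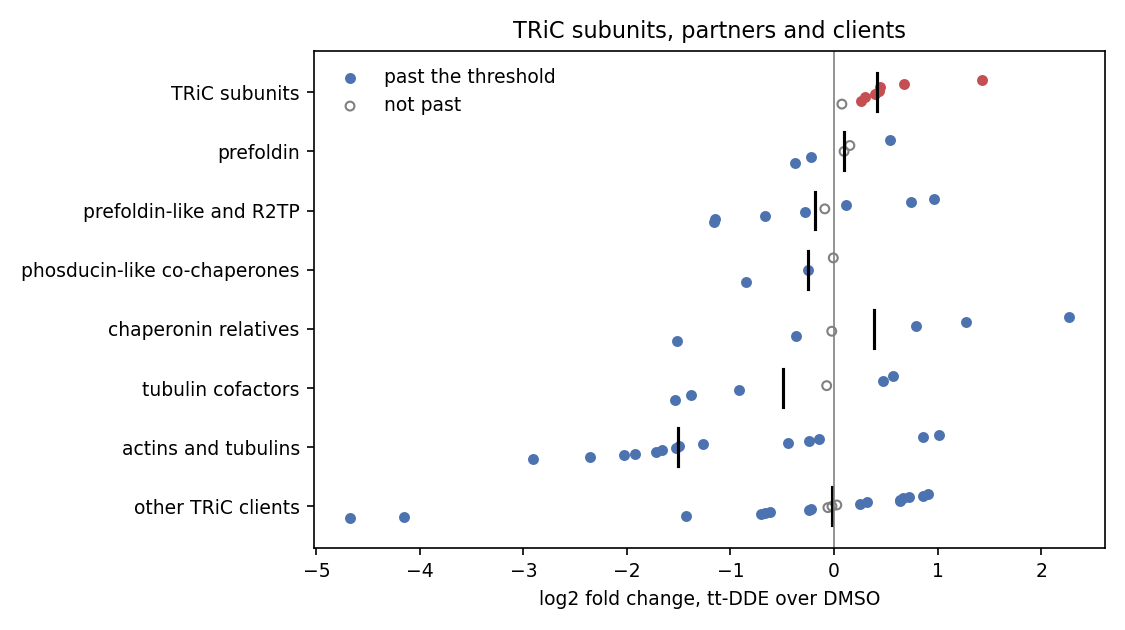
Log2 fold change, tt-DDE over DMSO (horizontal axis), with 1 point per gene, for the TRiC subunits (red) and for lists of partners, relatives and clients (blue), where open grey points did not pass the test and black bars are list medians. The subunits lie between 0.08 and 1.43, and the actins and tubulins have a median of -1.51.

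The 5 genes whose pattern over the 6 libraries was nearest to the mean pattern of the 8 subunits were CDR2L, TBCA, RAB7A, PEA15 and CHMP7. They were chosen among 4713 features outside the complex with at least 50 CPM on average, by the root mean square difference of centred log2 CPM, which was 0.0177 to 0.0208. RAB7A, a small GTPase of late endosomes, went from 482 ± 3.75 to 697 ± 20.4 CPM. Their log2 fold changes were 0.46 to 0.53, which follows from the choice by nearness to that mean. The mean pattern includes TCP1, and these values lie above the subunits' median of 0.42.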

How the data were processed

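Polyadenylated RNA of ARPE-19 cells was measured in 3 DMSO and 3 tt-DDE libraries. Groups and replicate numbers came from the sample titles, and data columns from the labels' library names. The authors deposited, per the file headers, a read count and an FPKM per gene and library. The deposited counts are raw whole numbers. The deposited FPKM was the count over gene length and over column total for all 91254 values above 0 (relative tolerance 1e-06). The submitters' processing notes name GRCh38.p13 as build. No aligner, counter, annotation release or strand setting is given in the sources used here.

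Of 22312 rows, those sharing a name were summed to 19514 names. The count test was edgeR's two-sided quasi-likelihood test (version 4.0.16, R 4.3.3) with filterByExpr, TMM factors and a group term alone. P-values were adjusted by Benjamini-Hochberg over 12531 features, with a threshold of 0.05. The common dispersion was 0.00134. CPM used TMM factors. Proportions were fitted with the subunits' summed count as library size. The scripts were tested on simulated data in which far fewer features changed than in these libraries. That test therefore does not cover how the scaling behaves here. Alternatives used DESeq2 1.42.0, limma 3.58.1 on log2(FPKM + 1) or log2(FPKM + 0.1), other scalings and filters, unsummed rows, a replicate block, and each library left out in turn.

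Chi-square over degrees of freedom between libraries of a group was 1.737 to 3.575, above sampling noise. No library was treated as a repeat, though these values cannot tell technical from biological spread. PCR reads carry no molecular identifiers here, so counting floors cover counting error only. Promoter windows and motif backgrounds came from RefSeq. Genes were named by rule: the 8 subunits, members of the lists, genes overlapping a subunit gene or starting within 1000 bases of it on the opposite strand, and the 5 nearest patterns at a mean of at least 50 CPM. The members and lists were chosen with earlier results of these data known.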

Additional observations from a re-analysis of the deposited data

How the results depend on the processing

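The 7 subunits called higher kept their direction and their call in edgeR, DESeq2 and limma under all alternatives run, and the count was 7 in each except 8 with DESeq2 size factors and 7 to 8 with a library left out, where CCT5 passed as well. CCT5 was at 0.086 with DESeq2 size factors (adjusted p 0.0272), and at -0.016 with library size alone and in both limma fits. The subunits' median log2 fold change, 0.42, was 0.324 with library size alone, 0.322 and 0.323 in limma with pseudocounts 1 and 0.1, and 0.398 to 0.434 with a library left out. Library size alone moved the median of all features from 0.0013 to -0.091. No subunit reached 0.05 in the exact permutation test on shares (0 called against 6), since 3 against 3 cannot go below 0.1. With the total of the 7 subunits other than TCP1, CCT3, CCT6A and CCT8 turned to 0.035, 0.067 and 0.079.

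Replicate numbers in the titles have no stated meaning, and same-numbered libraries did not deviate together (correlations 0.0166, -0.00577 and -0.0119), nor did every library correlate best with its own number. A replicate block left 7 subunits higher and 6 changed in proportion.

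Prefoldin genes called higher went from 1 to 2 with DESeq2 size factors (PFDN5, adjusted p 0.0433) and were 1 to 2 with a library left out. Tubulin cofactors called higher went from 2 to 1 with library size alone, with DESeq2 and in both limma fits, and were 1 to 2 with a library left out. Genes near no change turned sign without a call. ATPSCKMT was at -0.088 with library size alone, -0.022 with no filter, -0.001 with rows not summed, -0.073 and -0.084 in limma, and -0.049 to 0.047 with a library left out. PDCL was at 0.004 with DESeq2 size factors, 0.002 with the block and -0.101 to 0.114 with a library left out. In limma too, 10 other clients fell in place of 8, with GNB2 at -0.150 and -0.151 and DCAF7 at -0.108 and -0.111. HDAC3 was at -0.065 with library size alone and at -0.064 and -0.066 in limma. With a library left out, CCT6B ranged from -0.191 to 0.072, DCAF7 from -0.055 to 0.002 and HDAC3 from -0.006 to 0.060. In DESeq2 the calls of TSACC, HSF1, URI1, TUBB2A and TBCE were lost (adjusted p 0.0527, 0.0592, 0.0807, 0.077 and 0.152). The cause of these changes was not tested. Depth limits the genes with few counts, such as TSACC, TBCE and CCT6B, more than the subunits, which had at least 4024 counts in every library.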
